A study of Mus musculus with 4 samples.

Results

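The Hox genes are described here in single cells of the mouse tibia at postnatal day 6 (P6). Members were all rows of the gene count matrix whose symbol is Hox, a cluster letter from a to d, and a number. This gave 40 of 31053 rows, or 39 symbols, since Hoxd4 is listed under 2 identifiers. The cells came from the 2 tibiae of 1 male mouse and were run as 1 library on the 10x Genomics 3′ platform, which counts captured transcripts by unique molecular identifiers (UMIs). The 4 sample entries of the series are sequencing entries of that library, so no comparison below has a biological replicate. The mouse was Col10a1Cre;Rosa26-Tdtomato;Irx3 +/Δ;Irx5 +/-, the Irx3/5 heterozygous control. The Δ allele of Irx3 is, per the study's methods, deleted in HCs, and 1 copy of Irx5 is missing throughout. Col10a1Cre acts in hypertrophic chondrocytes (HCs), so the tdTomato reporter marks HCs and cells that descend from them. A cell was counted as HC-derived when it held more than 14 UMIs of WPRE, the 3′ element of the reporter transcript. A P56 sample of the study was not analysed here.

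Hox genes encode homeodomain transcription factors that lie in 4 clusters, HoxA to HoxD, and give cells a position along the body axis and along the limb. Genes at the 3′ end of a cluster (low paralog numbers) act towards the head, while those at the 5′ end (paralog groups 9 to 13) act in the lower trunk and in the limbs. In the hindlimb, the Hox10 group is known for patterning the femur, the Hox11 group the tibia and fibula and the Hox13 group the foot. In blood formation, Hoxa7, Hoxa9 and Hoxb4 are known from stem and progenitor cells.

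After filtering, 8256 of 14181 barcodes were kept, with a median of 13958 UMIs per cell. Cells were clustered without the Hox genes or the non-coding genes of their clusters, so the classes do not rest on the genes described. The 28 clusters were named from marker genes by a rule set after the clusters had been seen, and 2 clusters with 186 cells, 130 of them called doublets, stayed unnamed. The Col10a1-rich cluster (106 cells, 89 of them HC-derived) had 1 gene of the HC list and 2 of the monocyte list among its 10 leading genes and is called by its marker gene. The plasmacytoid dendritic-like cluster also holds basophil and progenitor genes. One of the 2 endothelial-like clusters (led by Eln and Gja4) and one of the pre-HC-like clusters had no marker among their 10 leading genes. Doublet calls were kept (460 of the 8256 cells). Levels are UMIs of a gene per 1000000 UMIs of all cells of a class (CPM), each followed by its exact 95% Poisson interval, and log2 ratios of levels are followed by an exact 95% interval of the ratio. These intervals cover counting error only, and not the spread between mice, and no test was made, since cells of 1 mouse are not replicates. A 3′ UMI count stands for 1 captured transcript and is not scaled by gene length, but capture differs between transcripts, so a level is compared between classes rather than between genes.

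The kept cells held 15346 Hox UMIs. Of the 40 members, 22 reached 100 UMIs and carried 97.0% of these UMIs, 16 had 1 to 99, and Hoxd12 and the second Hoxd4 identifier had 0. With a limit of 10% mitochondrial UMIs, the summed Hox level was 158 CPM (155 to 161) in the 3040 chondro-osteogenic cells, 243 CPM (234 to 253) in the 827 endothelial-like cells and 15.7 CPM (14.6 to 16.8) in the 3682 white and red blood-lineage cells. It was highest in fibroblast- or tendon-like cells at 247 CPM (231 to 263), an interval that overlaps that of the endothelial-like cells. With a limit of 5%, under which only 39 cells were named endothelial-like, their level was 401 CPM. Pericyte- or smooth muscle-like cells had 212 CPM (185 to 241) and marrow stromal-like cells 211 CPM (184 to 241). Within the skeletal lineage the order was chondrocyte-like 182 CPM (177 to 187), resting chondrocyte-like 177 CPM (162 to 194), immature osteoblast-like 159 CPM (150.5 to 168), pre-HC-like 149.8 CPM (143 to 156), mature osteoblast-like 114 CPM (108 to 122) and Col10a1-rich 111 CPM (101 to 123). The first pair, the immature osteoblast-like and pre-HC-like cells, and the last pair have overlapping intervals. Neutrophil-like cells had the lowest level of the 17 classes at 4.63 CPM (3.13 to 6.61).

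**Figure D1:**
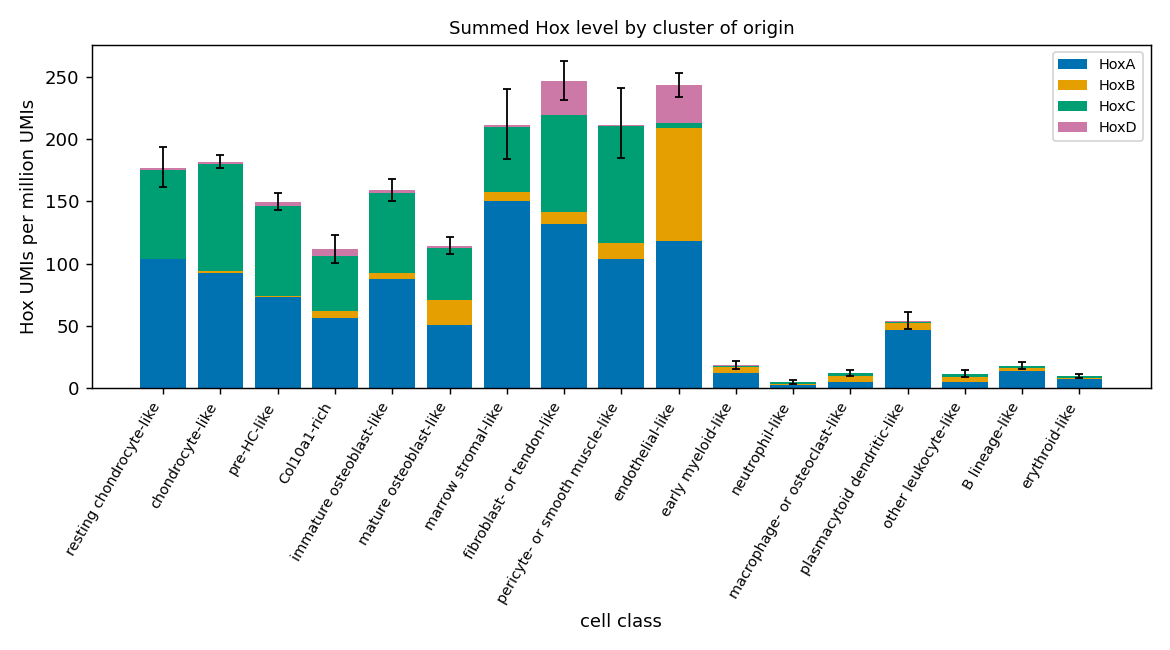
Summed Hox level (CPM) in each of the 17 cell classes, split by the cluster the UMIs came from; the error bar is the exact 95% Poisson interval of the sum. HoxA and HoxC make up most of the bars of all skeletal, stromal and pericyte classes, with a HoxD part in fibroblast- or tendon-like cells, and HoxA, HoxB and HoxD that of endothelial-like cells, and blood classes lie far lower; mature osteoblast-like cells also show a HoxB part.

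The clusters of origin differed between these tissues. In chondro-osteogenic cells HoxA gave 50.6% and HoxC 44.8% of the Hox UMIs, with 2.94% from HoxB and 1.64% from HoxD. Paralog groups 9 to 13 held 68.5% (67.6 to 69.4) of them. In endothelial-like cells HoxB gave 37.4% and HoxD 12.4%, while HoxC gave 1.64%, and groups 9 to 13 held 14.4% (13.04 to 15.9). Fibroblast- or tendon-like cells resembled the skeleton in HoxC (31.6%) and in groups 9 to 13 (74.9%, 72.03 to 77.7), but took 11.1% from HoxD. In blood cells HoxA gave 69.6% of a far smaller sum. In sums over a class, fewer cells with a gene and less RNA per cell cannot be told apart.

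Skeletal cells used a run of neighbouring genes towards the 5′ side of HoxA and HoxC. Hoxc9 (chr15:102976439-102985099, GRCm38 here and below), best known from thoracic spinal motor neurons, was the most counted member with 2047 UMIs. Its level was 34.9 CPM (31.9 to 38.2) in pre-HC-like and 33.7 CPM (31.5 to 35.97) in chondrocyte-like cells, against 14.4 CPM (10.3 to 19.7) in resting chondrocyte-like cells. Hoxc10 (chr15:102966796-102971893), a gene of the lumbar region and hindlimb, was instead higher in resting chondrocyte-like cells, at 35.9 CPM (29.1 to 43.7), than in pre-HC-like cells, at 19.3 CPM (17.1 to 21.8). In Col10a1-rich cells Hoxc9 read 16.3 CPM (12.4 to 21.1) and Hoxc10 18.6 CPM (14.3 to 23.6). These neighbours on chromosome 15 thus differed in opposite directions between resting chondrocyte-like and pre-HC-like cells. In Col10a1-rich cells the Hoxc9 interval overlaps that of resting chondrocyte-like cells, and the Hoxc10 interval that of pre-HC-like cells.

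**Figure D2:**
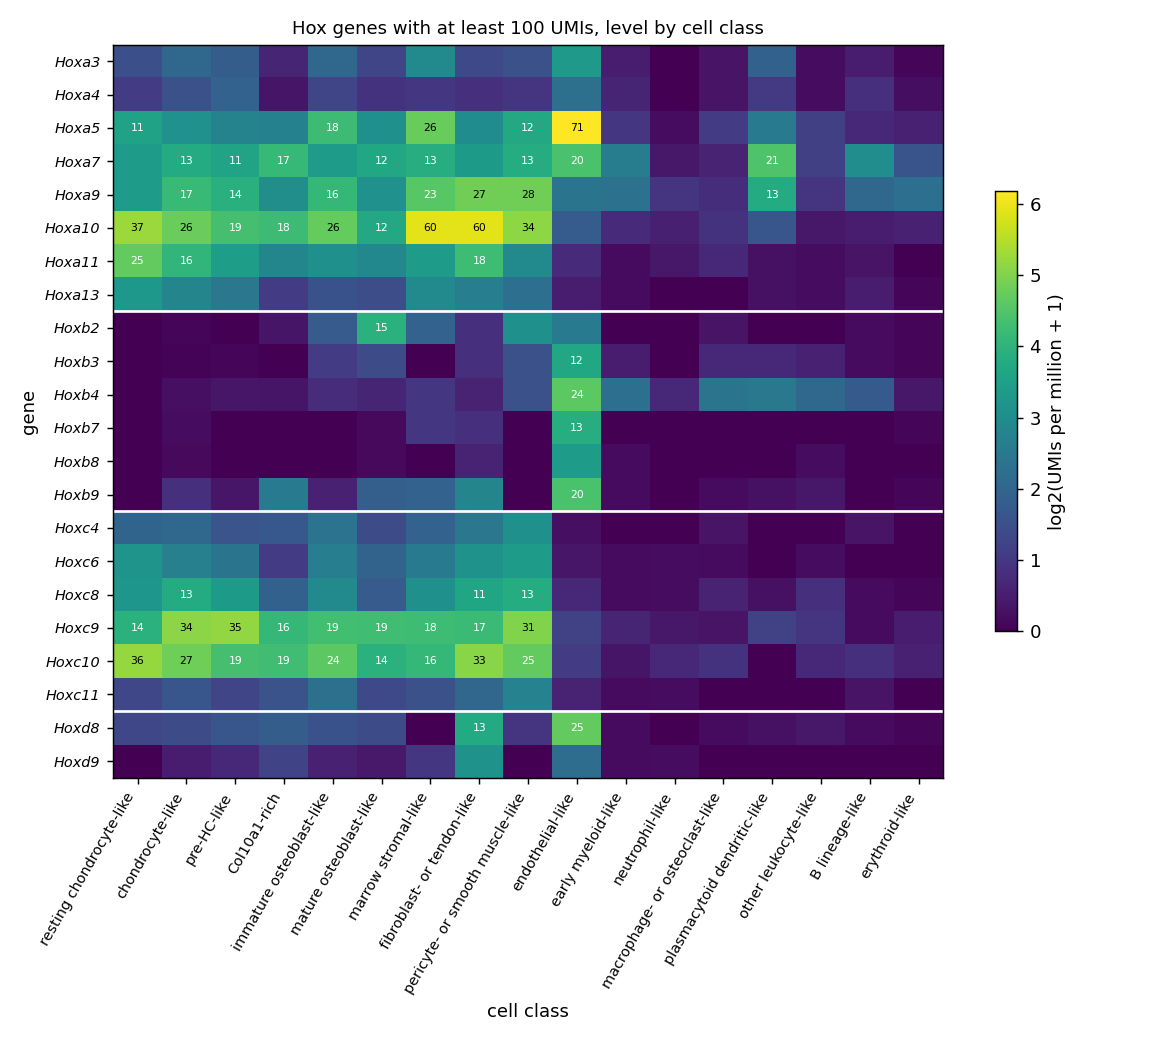
Level of the 22 members with at least 100 UMIs (rows, grouped by cluster and ordered by paralog group) in 17 cell classes (columns), as log2 of the CPM plus 1; numbers in the cells are levels of 10 CPM or more. Hoxa10, Hoxc9 and Hoxc10 stand at 10 CPM or more in all skeletal and stromal columns. Hoxa9, Hoxa11 and Hoxc8 do so in only some of them, with Hoxc8 at 2.44 CPM in mature osteoblast-like and 2.81 CPM in Col10a1-rich cells. In the endothelial column Hoxa5, Hoxa7, Hoxb3, Hoxb4, Hoxb7, Hoxb9 and Hoxd8 stand at 10 CPM or more.

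Hoxa10 (chr6:52231197-52240854) and Hoxa11 (chr6:52242106-52245810), from the groups that pattern the femur and the lower leg, were also highest in resting chondrocyte-like cells within cartilage. Hoxa10 read 36.96 CPM (30.1 to 44.96) there, 26.1 CPM (24.2 to 28.1) in chondrocyte-like, 19.3 CPM (17.1 to 21.8) in pre-HC-like and 17.7 CPM (13.6 to 22.7) in Col10a1-rich cells. Hoxa11 read 24.8, 15.7, 9.99 and 6.18 CPM in the same order. Both levels were thus lower at each step of these 4 classes, although the last pair of intervals overlaps for Hoxa10 and for Hoxa11. These levels are shares of all UMIs, and median depth rose over the same classes, from 12269 through 21109.5 and 28948.5 to 33060 UMIs per cell. The part of depth in this order was not tested. Hoxa13 (chr6:52257694-52260880), the gene of the foot, followed at 8.87 CPM (5.68 to 13.2) in resting chondrocyte-like and 1.12 CPM (0.306 to 2.88) in Col10a1-rich cells. Hoxa7 (chr6:52214491-52221854), a more anterior neighbour, had another order, with 9.61 CPM (6.28 to 14.1) and 16.6 CPM (12.6 to 21.4) at the 2 ends. Hoxb9 read 4.78 CPM (2.78 to 7.65) in Col10a1-rich and 0.287 CPM (0.0783 to 0.736) in pre-HC-like cells. Hoxd8 read 2.53 CPM (1.16 to 4.802) and 2.16 CPM (1.45 to 3.08) in the same classes, with overlapping intervals.

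The clusters inside these classes differed as well. The pre-HC-like cluster led by Ihh, Pth1r and Panx3 (286 cells) had a summed level of 129.7 CPM (122 to 137), and the other, led by Espn, Bnip3 and Egln1 (182 cells), 191 CPM (178 to 204). Hoxc8, a gene of trunk and motor neuron patterning, read 6.97 CPM (5.38 to 8.88) in the first and 13.9 CPM (10.7 to 17.8) in the second, and Hoxa11 7.503 CPM (5.85 to 9.48) and 15.03 CPM (11.7 to 19.02). Hoxc10 was alike in both within counting error (19.1 CPM (16.4 to 22.1) and 19.8 CPM (15.96 to 24.3)). Of the chondrocyte-like clusters, that led by Prelp, Gdf10 and Epyc (704 cells) had 196 CPM (189.7 to 203) and that led by Nfatc2 and Ucma (474 cells) 152 CPM (144 to 161), with Hoxc9 at 38.3 CPM (35.5 to 41.3) and 23.7 CPM (20.5 to 27.3).

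Set against all other chondrogenic cells, the Col10a1-rich cells had a summed Hox log2 ratio of -0.62 (-0.77 to -0.47), while the median over all genes compared was 0.35. They were also the deeper group, with medians of 33060 and 21843 UMIs. Hox UMIs per cell were 3.74 in Col10a1-rich and 3.93 over all chondrogenic cells, and the part of depth in the ratio was not tested. In each comparison, genes with at least 50 UMIs in both groups together were compared and called at a 2-fold difference, a rule of size and no test. Of 16 members compared, 0 were at least 2-fold higher in Col10a1-rich cells, where 21.4% of all genes were, and 9 at least 2-fold lower, where 10.7% were. Among the lower members were Hoxa3, Hoxa4, Hoxa9, Hoxa11, Hoxa13, Hoxc6, Hoxc8 and Hoxc9, with Hoxc8 at a log2 ratio of -2.04 (-3.10 to -1.14). Resting chondrocyte-like cells differed little from the other chondrogenic cells in sum (0.09, -0.04 to 0.23). 2 of 16 members were at least 2-fold lower in them (9.84% of all genes), among them Hoxc9 (-1.18, -1.68 to -0.72), and 0 higher (8.51%).

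Osteogenic cells (1083 cells, 136 CPM) had a lower summed level than chondrogenic cells (1957 cells, 167 CPM), with a log2 ratio of -0.30 (-0.36 to -0.23). The median over the 18 members compared was -0.31 and that over all 13134 genes compared 0.20. 2 members were at least 2-fold lower, Hoxa13 (-1.53, -2.11 to -0.99) and Hoxc8 (-1.26, -1.63 to -0.92), beside 12.6% of all genes, and 1 was at least 2-fold higher, Hoxb2, beside 20.2%. Hoxa5, the most anterior of the well counted HoxA members and a gene of lung and rib cage development, was 1.76-fold higher in osteogenic cells (12.5 against 7.103 CPM). The ratio was lower with each position further along HoxA, from Hoxa7 (-0.20, -0.45 to 0.04) through Hoxa9 (-0.34, -0.57 to -0.11) and Hoxa10 (-0.37, -0.55 to -0.19) to Hoxa11 (-0.99, -1.28 to -0.70). The intervals of Hoxa7, Hoxa9 and Hoxa10 overlap, and that of Hoxa11 lies below them.

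Hoxb2 (chr11:96350525-96354012), known from the hindbrain and the facial nerve, stood apart from the other HoxB genes in bone. It had 3 UMIs in 1957 chondrogenic cells and 151 in 1083 osteogenic cells, a log2 ratio of 7.07 (5.50 to 9.37). Most came from mature osteoblast-like cells, at 14.5 CPM (12.1 to 17.2), against 2.43 CPM (1.48 to 3.75) in immature osteoblast-like cells. These mature cells had the highest Hoxb2 level of the 17 classes, ahead of pericyte- or smooth muscle-like cells at 7.59 CPM (3.28 to 14.96) and endothelial-like cells at 4.88 CPM (3.61 to 6.46), although the interval of the pericyte- or smooth muscle-like cells overlaps theirs. Its neighbours did not share this level: Hoxb3 read 1.66 CPM (0.931 to 2.74) and Hoxb4 0.554 CPM (0.18004 to 1.29) in mature osteoblast-like cells. No exon of another gene overlapped the 3′ end of Hoxb2 on the same strand in GENCODE M21.

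From immature to mature osteoblast-like cells the summed level went from 159 to 114 CPM, a log2 ratio of -0.47 (-0.59 to -0.36) where the median of all genes was -0.46 and that of the members -0.80. 4 of 10 members were at least 2-fold lower in mature cells, against 18.8% of all genes: Hoxa5 (-1.25, -1.69 to -0.83), Hoxa9 (-1.08, -1.52 to -0.65), Hoxa10 (-1.05, -1.40 to -0.71) and Hoxc8 (-1.48, -2.26 to -0.75). Hoxb2 was the 1 member at least 2-fold higher (2.58, 1.89 to 3.34), against 5.37% of all genes. Hoxc9 (-0.03, -0.36 to 0.29), Hoxa11 (-0.23, -0.77 to 0.31) and Hoxa7 (0.29, -0.14 to 0.72) had intervals that include no difference. Median depth was 10857 UMIs per immature and 18991 per mature cell.

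The reporter threshold splits the osteogenic cells into those counted as HC-derived and those below the cut. The second group may also hold HC descendants with too few reporter UMIs. Of the Col10a1-rich cells, 17 of 106 were below the cut. The part of such cells in the values below was not tested. HC-derived cells made up 270 of 1083 osteogenic cells, 125 of 655 immature and 145 of 428 mature osteoblast-like cells. Their summed Hox level was 152 CPM, against 129 CPM in osteogenic cells not counted as HC-derived, a log2 ratio of 0.24 (0.12 to 0.37). Among mature osteoblast-like cells it was 146 against 96.9 CPM (0.59, 0.41 to 0.77), and among immature ones 162 against 158 CPM (0.03, -0.16 to 0.22). The intervals of the 2 ratios do not overlap in the main setting, but those of some other settings do. These are at least 2000 genes per cell, doublets left out, resolution 1.5, and at least 1 tdTomato UMI as the reporter rule. In each of these the interval for immature cells lies above 0. The ratio in immature cells lay between -0.38 and 0.29 under other processing settings, while that in mature cells lay between 0.45 and 0.64. With at most 5% mitochondrial UMIs the pooled ratio turned to -0.03. The median over all genes compared was 0.10 in mature and -0.01 in immature cells. Median depth was 19018 and 18955 UMIs in the mature groups, and 11786 and 10565 in the immature groups.

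**Figure D3:**
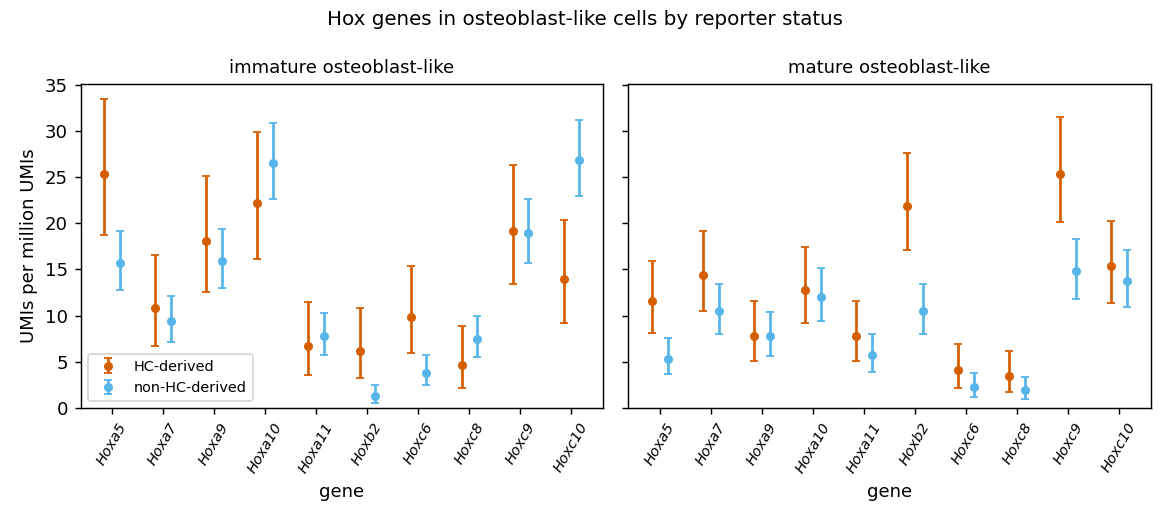
Level (CPM) of 10 Hox genes in HC-derived and non-HC-derived cells of the immature (left) and mature (right) osteoblast-like class, with exact 95% Poisson intervals. Hoxb2 lies higher in HC-derived cells in both panels, at 21.9 against 10.5 CPM in mature cells, and Hoxc10 lies lower in HC-derived cells of the immature class; its difference between the classes was not tested.

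2 of 10 members were at least 2-fold higher in HC-derived osteogenic cells, Hoxb2 (1.49, 1.01 to 1.97) and Hoxc6 (1.03, 0.30 to 1.75), where 1.04% of all genes were. 0 members were at least 2-fold lower (3.22% of all genes). Within mature osteoblast-like cells 2 of 8 members were at least 2-fold higher, Hoxa5 and Hoxb2 (0.835% of all genes), and 0 lower (1.91%). Within immature ones 0 of 8 were higher (1.18%) and 0 lower (2.84%). Hoxb2 had 70 UMIs in HC-derived and 61 in other mature osteoblast-like cells, or 21.9 against 10.5 CPM (1.06, 0.55 to 1.58). In immature cells it had 12 and 8 UMIs, or 6.201 against 1.27 CPM (2.29, 0.87 to 3.78), too few to be among the genes compared. Hoxa5 was higher in HC-derived cells of both classes, at 25.3 against 15.7 CPM in immature (0.69, 0.16 to 1.19) and 11.6 against 5.33 CPM in mature cells (1.12, 0.39 to 1.86). Hoxc9 differed in mature cells (0.78, 0.32 to 1.23) and not beyond counting error in immature cells (0.02, -0.56 to 0.56). Hoxc10 was lower in HC-derived immature cells (-0.94, -1.59 to -0.35), with an interval for mature cells that spans 0 (0.16, -0.39 to 0.69), and the intervals of the 2 ratios overlap. Hoxa10, which was high in marrow stromal and tendon-like cells, had intervals that span 0 in both classes. The reporter threshold is a count of UMIs, and over all osteogenic cells the HC-derived group was the deeper, with medians of 16116 and 12910 UMIs, whose part in the pooled ratio was not tested. Mature osteoblast-like cells were 145 of the 270 HC-derived and 283 of the 813 other osteogenic cells. The part of this difference in the pooled ratios was not tested.

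Stromal and tendon-like cells shared the posterior HoxA and HoxC genes with the skeleton and differed from it in single members. Hoxa10 was highest in marrow stromal-like cells at 60.2 CPM (46.2 to 76.98) and in fibroblast- or tendon-like cells at 60.05 CPM (52.5 to 68.3), against 25.5 CPM (22.2 to 29.2) in immature osteoblast-like cells. It was the 1 member of 8 compared that was at least 2-fold higher in marrow stromal-like than in immature osteoblast-like cells (1.24, 0.81 to 1.65), beside 6.58% of all genes. 0 were at least 2-fold lower (5.12%). Against chondro-osteogenic cells, 4 of 19 members were at least 2-fold higher in fibroblast- or tendon-like cells, a share near the 20.5% of all genes. These members were Hoxa10 (1.41, 1.20 to 1.61), Hoxb9 (2.46, 1.72 to 3.16), Hoxd8 (2.79, 2.28 to 3.29) and Hoxd9 (4.05, 3.28 to 4.82). 3 were at least 2-fold lower (9.58% of all genes), among them Hoxa4 and Hoxb2, on 3 and 3 UMIs in the fibroblast- or tendon-like cells.

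Hoxd8, Hoxd9 and Hoxd11 were higher in 1 of the 2 fibroblast- or tendon-like clusters, that rich in the tendon genes Tnmd and Thbs4 (176 cells). Hoxd11, which acts with Hoxa11 in the lower leg and forearm, had 16 UMIs there, 0 in the Aspn- and Postn-rich cluster (152 cells) and 1 in all other cells kept. With at least 2000 genes per cell, where 105 cells were named fibroblast- or tendon-like, it read 0 CPM in that class. Hoxd10 was found in both clusters, with 6 UMIs in the Tnmd-rich (2.98 CPM, 1.09 to 6.48) and 2 in the Aspn-rich cluster (1.102 CPM, 0.133 to 3.98), and their intervals overlap. Hoxd9 read 14.9 CPM (10.04 to 21.3) in the Tnmd-rich and 0.551 CPM (0.0139 to 3.07) in the Aspn-rich cluster, and Hoxd8 21.3 CPM (15.4 to 28.7) and 3.31 CPM (1.21 to 7.19). All HoxB genes together, Hoxb9 among them, read 16.9 CPM in the Tnmd-rich and 1.10 CPM in the Aspn-rich cluster. Hoxa11 split the same way, at 31.8 CPM (24.5 to 40.6) against 3.31 CPM (1.21 to 7.19), a log2 ratio of 3.26 (2.06 to 4.76). It was the 1 member of 5 compared at least 2-fold higher in the Tnmd-rich cluster (10.6% of all genes), and 0 were lower (4.23%). Hoxa10 was alike in both within counting error (0.25, -0.13 to 0.64), and Hoxc9 was lower in the Tnmd-rich cluster (-0.99, -1.78 to -0.24). The Tnmd-rich cluster also held 7 of 8 Schwann cell genes at 10 CPM or more, with a summed level of 322 CPM, against 1 and 33.1 CPM in the Aspn-rich cluster, and their part in these values was not tested. The Hoxd12 and Hoxd13 genes at the 5′ end of HoxD had 0 and 6 UMIs in all cells kept.

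Endothelial-like cells differed from the skeleton in nearly every member compared. Against chondro-osteogenic cells, 13 of 25 members were at least 2-fold higher, where 26.8% of all genes were, and 10 at least 2-fold lower, where 19.5% were. The 7 HoxB members compared were all higher, from Hoxb2 (1.01, 0.51 to 1.48) to Hoxb7 (7.40, 6.15 to 9.05). The 6 HoxC members compared were all lower, from Hoxc11 (-2.07, -3.72 to -0.81) to Hoxc9 (-4.44, -5.35 to -3.66). HoxA was divided by position: Hoxa2 to Hoxa5 were higher and Hoxa9, Hoxa10, Hoxa11 and Hoxa13 lower, with Hoxa7 between them at 0.75 (0.52 to 0.97). Of HoxD, Hoxd8 (3.74, 3.42 to 4.07) and Hoxd9 (2.88, 2.14 to 3.62) were higher.

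**Figure D4:**
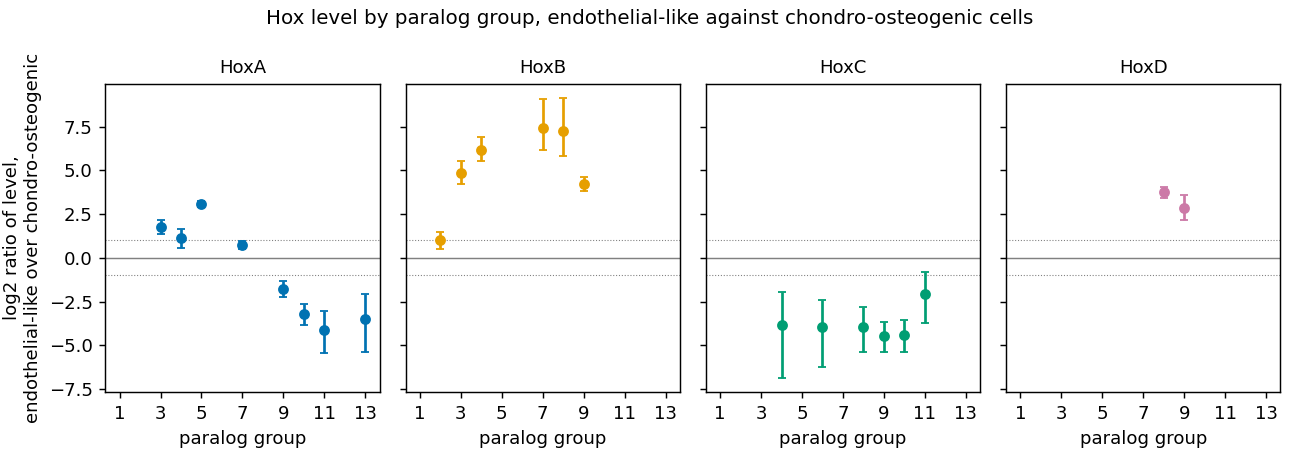
Log2 ratio of the level in endothelial-like over chondro-osteogenic cells for each of the 22 members with at least 100 UMIs, against paralog group, in 4 panels for HoxA to HoxD, with exact 95% intervals and dotted lines at 2-fold. HoxA crosses from above to below 0 between groups 7 and 9, every HoxB point lies above 0, every HoxC point below it.

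Hoxa5 (chr6:52201754-52204587) was the highest, at 71.4 CPM (66.3 to 76.9) against 25.8 CPM (16.99 to 37.5) in marrow stromal-like cells, the next class. Hoxd8 (chr2:74704615-74707933), a trunk gene also known from lymphatic vessels, read 24.7 CPM (21.7 to 27.99), and Hoxb4 (chr11:96318267-96321638) 23.7 CPM (20.8 to 26.9), against 0.331 CPM (0.205 to 0.506) in chondro-osteogenic cells. Hoxb9 read 20.1 CPM (17.4 to 23.1), Hoxb7 13.4 CPM (11.2 to 15.8), Hoxb3 11.8 CPM (9.73 to 14.1) and Hoxb8 9.57 CPM (7.75 to 11.7). Hoxc10 read 1.096 CPM (0.547 to 1.96) and Hoxa11 0.698 CPM (0.2805 to 1.44), with intervals that overlap those of neutrophil-like cells, 0.618 CPM (0.168 to 1.58) and 0.309 CPM (0.0374 to 1.12). The cartilage gene Col2a1 read 1141 CPM in endothelial-like and 487 CPM in neutrophil-like cells, and the part of free RNA in these Hox levels was not tested. The Hoxc10 level in endothelial-like cells depended on the processing. It read 2.49 CPM (1.63 to 3.65) when 2000 genes were required in a cell, and 2.51 CPM (1.65 to 3.65) with more variable genes. Both lie above the neutrophil-like interval of the main setting. Without doublets it read 0.678 CPM (0.249 to 1.48), and with at most 5% mitochondrial UMIs 0 CPM. The neutrophil-like level was not recomputed under these settings. Hoxc9 and Hoxa10, with 1.295 CPM (0.6898 to 2.22) and 2.49 CPM (1.61 to 3.68) in endothelial-like cells, compare with 0.309 CPM (0.0374 to 1.12) and 0.463 CPM (0.0955 to 1.35) in neutrophil-like cells, and the intervals of Hoxa10 alone do not overlap. Pericyte- or smooth muscle-like cells, which wrap the same vessels, were nearer to the skeleton: 8 of 12 members were at least 2-fold lower in them than in endothelial-like cells (15.5% of all genes), and Hoxa9 (2.72, 1.98 to 3.43) and Hoxa10 (3.78, 3.002 to 4.58) were higher (10.7%). Hoxb7, Hoxb8 and Hoxb9 had 0 UMIs in 101 pericyte- or smooth muscle-like cells, which allows up to 2.85 CPM each, so that Hoxb9 was at least 7.07-fold lower than in endothelial-like cells.

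The sequences just before the start sites are shown for 3 genes that were higher in endothelial-like cells and 2 HoxA genes that were lower, as the genes on either side of that division. They are the 250 bases before the RefSeq start on GRCm38.p6, on the strand of the gene, for Hoxa5 (chr6:52204588-52204837, minus), Hoxb4 (chr11:96318017-96318266, plus), Hoxd8 (chr2:74704365-74704614, plus), Hoxa9 (chr6:52227371-52227620, minus) and Hoxa11 (chr6:52245811-52246060, minus), and capitals mark TAAT, the core that homeodomains bind, on either strand.
Hoxa5: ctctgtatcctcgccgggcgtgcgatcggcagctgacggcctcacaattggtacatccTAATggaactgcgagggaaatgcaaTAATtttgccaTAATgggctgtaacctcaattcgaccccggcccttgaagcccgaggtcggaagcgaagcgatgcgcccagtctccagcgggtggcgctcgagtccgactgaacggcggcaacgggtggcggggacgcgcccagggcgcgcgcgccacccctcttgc
Hoxb4: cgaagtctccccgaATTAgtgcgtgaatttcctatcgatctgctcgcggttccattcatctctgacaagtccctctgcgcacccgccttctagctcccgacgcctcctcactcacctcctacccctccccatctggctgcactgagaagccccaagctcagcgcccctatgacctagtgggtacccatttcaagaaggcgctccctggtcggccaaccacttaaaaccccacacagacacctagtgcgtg
Hoxd8: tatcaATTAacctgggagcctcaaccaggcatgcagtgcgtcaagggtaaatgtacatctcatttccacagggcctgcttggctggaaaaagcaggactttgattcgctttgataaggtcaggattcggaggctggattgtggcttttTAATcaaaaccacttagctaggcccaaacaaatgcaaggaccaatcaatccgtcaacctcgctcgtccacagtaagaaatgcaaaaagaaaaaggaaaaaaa
Hoxa9: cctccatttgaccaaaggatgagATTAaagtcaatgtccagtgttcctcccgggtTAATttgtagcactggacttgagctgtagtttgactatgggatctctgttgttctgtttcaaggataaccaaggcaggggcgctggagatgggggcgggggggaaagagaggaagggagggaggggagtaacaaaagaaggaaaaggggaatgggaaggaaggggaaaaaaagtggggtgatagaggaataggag
Hoxa11: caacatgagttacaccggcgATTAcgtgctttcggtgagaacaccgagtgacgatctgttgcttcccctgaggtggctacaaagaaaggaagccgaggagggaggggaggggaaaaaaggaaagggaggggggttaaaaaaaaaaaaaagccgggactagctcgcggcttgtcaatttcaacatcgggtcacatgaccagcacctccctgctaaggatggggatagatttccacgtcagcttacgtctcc
TAAT occurred 3 times before Hoxa5, 2 times before Hoxd8 and Hoxa9 and 1 time before Hoxb4 and Hoxa11, counting both strands and overlapping matches. Such a match was held by 54.9% of the 32851 windows of this length in the table, and by 18 of its 24 windows for 22 Hox genes. The longer TGATNNAT, a core for Hox with a TALE-class partner, was in none of the 5 windows, in 4 of the 24 Hox windows and in 7.68% of all. The number of CG dinucleotides was 28 before Hoxa5, 14 before Hoxb4, 13 before Hoxa11, 6 before Hoxd8 and 3 before Hoxa9, with a median of 12.5 over the Hox windows and 6 over all. The windows of the higher and lower genes were thus mixed in the TAAT and CG counts, while TGATNNAT did not vary among them.

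The levels were uneven within the endothelium. The smaller of the 2 endothelial-like clusters, rich in Gja4 and Eln as arteries are (72 cells), had a summed Hox level of 436 CPM (389 to 486), the highest of all clusters named, against 228 CPM (219 to 238) in the larger, Selp-rich one. 4 of 9 members were at least 2-fold higher in it (8.71% of all genes), Hoxa5 (1.003, 0.68 to 1.31), Hoxb3 (1.45, 0.70 to 2.15), Hoxb4 (1.27, 0.73 to 1.77) and Hoxd8 (1.20, 0.66 to 1.70), and 0 lower (9.6%). HoxC read 2.72 CPM there, on 1 UMI each of Hoxc8 and Hoxc10, and 4.09 CPM in the larger cluster. Counts this low do not allow a comparison of HoxC between the clusters. When the endothelial-like cells were clustered again, Hoxa5 took 2 ranges among the 6 sub-clusters without called doublets. It read 139 (117 to 165) CPM in the sub-cluster rich in Stab2, a sinusoid gene (77 cells), 128 (107 to 151) CPM in that rich in Gja4 (101 cells) and 118 (102 to 136) CPM in that led by Pgf and Cxcr4 (160 cells). In the Selp-rich (32.1 CPM, 24.3 to 41.6), the cycling (27.2 CPM, 19.7 to 36.7) and the Crmp1-led sub-cluster (29.6 CPM, 18.3 to 45.2) it was lower, and the 2 ranges do not overlap. Hoxb4 did not divide these sub-clusters in the same way, with 10.2 (4.905 to 18.8) CPM in the Stab2-rich and 54.4 (41.2 to 70.4) CPM in the Gja4-rich sub-cluster. Hoxc9 and Hoxc10 exceeded 2 CPM together only in a sub-cluster of 24 cells led by Mmp13 and Col3a1, of which 9 were called doublets.

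In blood cells the summed level was 17.7 CPM (16.4 to 18.998) for white cells and 9.19 CPM (7.57 to 11.1) for erythroid-like cells. Of 19 members compared, 18 were at least 2-fold lower in blood than in chondro-osteogenic cells (27.5% of all genes), and Hoxb4 was higher (2.87, 2.20 to 3.61; 25.4% of all genes). Hoxa7, Hoxa9 and Hoxb4 made up most of the blood UMIs, with 229, 178 and 127 of 822. The posterior skeletal genes Hoxc9 and Hoxc10 read 0.496 CPM (0.324 to 0.727) and 0.553 CPM (0.371 to 0.795).

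**Figure D5:**
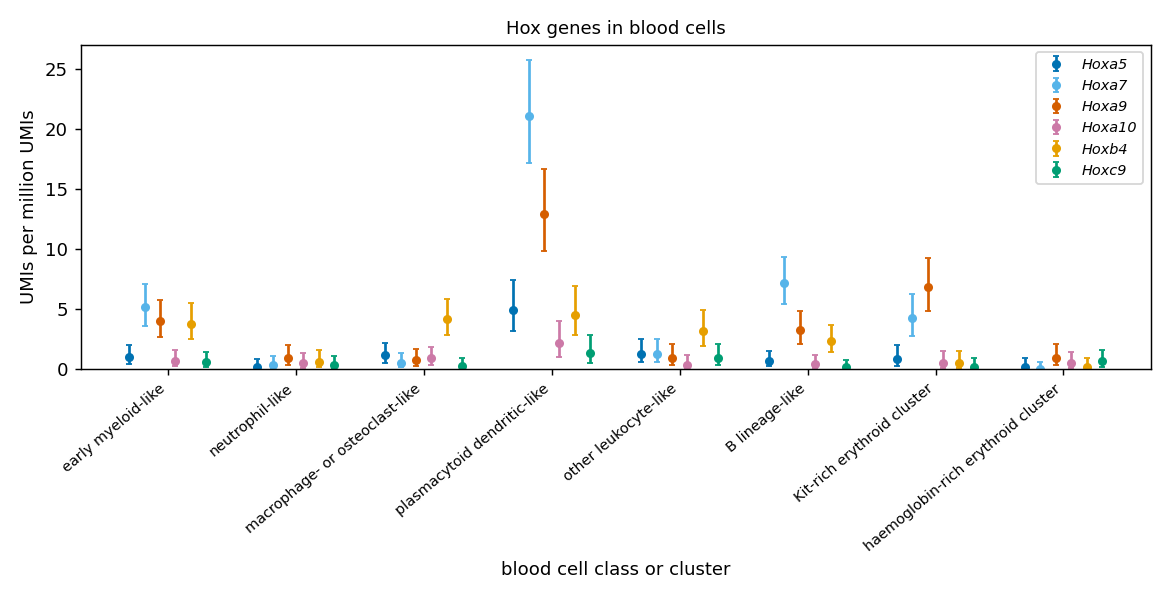
Level (CPM) of 6 Hox genes in 6 white blood classes and 2 erythroid clusters, with exact 95% Poisson intervals. Hoxa7 and Hoxa9 stand highest in the plasmacytoid dendritic-like cluster; neutrophil-like and haemoglobin-rich erythroid cells lie near 0.

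The plasmacytoid dendritic-like cluster, which mixes several cell types, had 53.5 CPM (47.1 to 60.6), with 21.1 CPM (17.2 to 25.8) for Hoxa7 and 12.9 CPM (9.88 to 16.7) for Hoxa9. When it was clustered again, the sub-cluster of 89 cells led by the haemoglobin genes Hba-a2, Hba-a1, Hbb-bs and Hbb-bt, with Ctla2a, Tmcc2, Hmga2, Hlf, Alas2 and Spp1 as its other leading genes, had 84.4 CPM (70.7 to 100.01), with Hoxa9 at 25.8 (18.5 to 35.05), Hoxa7 at 24.6 (17.5 to 33.6), Hoxa5 at 9.45 (5.29 to 15.6) and Hoxb4 at 6.93 (3.46 to 12.4) CPM. The other sub-clusters had 23.6 to 53.5 CPM in sum. In the sub-cluster of 89 cells Siglech read 23.9 CPM, against 1047 CPM in that led by Ccr9, Ly6d and Siglech. Its Cd34 (277 CPM) and Hmga2 (417 CPM) were the highest of these sub-clusters, while Kit (73.7 CPM) and Flt3 (160 CPM) were higher in others. Among erythroid cells the Kit-rich cluster had 14.7 CPM (11.7 to 18.1) and the haemoglobin-rich cluster 4.11 CPM (2.69 to 6.03), with Hoxa9 at 6.82 (4.87 to 9.28) and 0.949 (0.348 to 2.07) CPM. Early myeloid-like cells had 5.15 CPM (3.63 to 7.097) of Hoxa7 and 4.04 CPM (2.703 to 5.796) of Hoxa9, against 0.309 (0.0374 to 1.12) and 0.926 (0.33997 to 2.02) CPM in neutrophil-like cells. Of their sub-clusters the highest, with 36.2 CPM (29.04 to 44.6) in 112 cells, held 88 of the 130 Hox UMIs of the class. The bone genes Bglap and Sparc were among its leading genes, and their part in these levels was not tested. Its Cd34 (79.4 CPM), Kit (64.2 CPM) and Hmga2 (25.1 CPM) were also the highest of these sub-clusters. The other early myeloid-like sub-clusters had 5.89 to 13.1 CPM in sum. B lineage-like cells had 7.16 CPM (5.39 to 9.32) of Hoxa7 and 3.25 CPM (2.11 to 4.802) of Hoxa9, with intervals that do not overlap those of neutrophil-like cells. Macrophage- or osteoclast-like cells held Hoxb4 at 4.17 CPM (2.87 to 5.85), with Hoxa7 and Hoxa9 at 0.505 (0.138 to 1.29) and 0.758 (0.278 to 1.65) CPM.

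Among the members with 1 to 99 UMIs were Hoxa2 (99 UMIs), Hoxb6 (57), Hoxc5 (53), Hoxb5 (38), Hoxa6 (30), Hoxc13 (24) and 9 others with 2 to 17. Hoxa2, Hoxb5 and Hoxb6 were counted most in endothelial-like cells or next to them, with 41, 34 and 41 of their UMIs there. Of the named members not yet given, Hoxa3 (8.97 CPM, 7.21 to 11.02) and Hoxa4 (3.89 CPM, 2.76 to 5.31) were highest in endothelial-like cells. Hoxc4 (7.59 CPM, 3.28 to 14.96), Hoxc6 (9.49 CPM, 4.55 to 17.5), Hoxc8 (13.3 CPM, 7.27 to 22.3), Hoxc11 (5.696 CPM, 2.09 to 12.4) and Hoxa9 (27.5 CPM, 18.4 to 39.5) were highest in pericyte- or smooth muscle-like cells, each with an interval that overlaps that of another mesenchymal class. The last 500 bases of Hoxa3 transcripts overlapped exons of another gene on the same strand at 4.49% of positions, and those of Hoxc5 at 5.10% and of Hoxd3 at 55.2%, so reads may be split there.

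Single cells held few Hox transcripts. After thinning to 5000 UMIs per cell, with exact binomial intervals, 67.1% (61.7 to 72.2) of fibroblast- or tendon-like cells, 59.5% (55.8 to 63.1) of endothelial-like, 56.8% (53.9 to 59.7) of chondrocyte-like and 37.4% (32.8 to 42.2) of mature osteoblast-like cells held at least 1 Hox UMI, against 2.43% (1.298 to 4.11) of neutrophil-like cells. Before thinning these shares were 85.7, 77.9, 90.2, 79.9 and 4.83%, at median depths of 9872, 9092, 21109.5, 18992 and 11128 UMIs. Thinned chondrocyte-like cells had a mean of 0.837 members and endothelial-like cells 0.973. At this depth the same-group pair Hoxa10 and Hoxc10 was found together in 47 of 3019 chondro-osteogenic cells: Hoxc10 was in 14.5% (10.8 to 18.8) of the 325 cells with Hoxa10 and 10.4% (9.3 to 11.6) of those without. In endothelial-like cells Hoxd8 was in 15.9% (10.3 to 22.8) of the 145 cells with Hoxa5 and 11.1% (8.7 to 13.9) of those without, so that the shares with and without the partner overlapped in both pairs.

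The genes that work beside Hox proteins had distributions of their own. Of the Hox cofactors of the TALE class of homeodomain proteins, 5 of 7 compared were at least 2-fold higher in osteogenic than in chondrogenic cells and 0 lower, beside the 20.2% and 12.6% of all genes. Meis1, the partner of Hoxa9 in blood progenitors, was highest in the plasmacytoid dendritic-like cluster at 31.3 CPM (26.4 to 36.8), where Hoxa9 was highest among blood classes. Of 20 limb patterning factors, 4 reached 100 CPM (Shox2, Prrx1, Prrx2 and Tbx2), and 12 of the 14 compared were at least 2-fold lower in endothelial-like than in chondro-osteogenic cells, beside 19.5% of all genes, and the other 2 at least 2-fold higher, beside 26.8%. The hindlimb factor Pitx1 read 24.9 CPM (22.97 to 26.8) in chondrocyte-like and 55.3 CPM (48.1 to 63.3) in fibroblast- or tendon-like cells, whereas Tbx5, the forelimb factor, had 2 UMIs in all cells kept. Pitx1 and Tbx5 were used to check the labelled tissue, the tibia, as hindlimb, and they do not tell parts of the hindlimb apart.

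Of the 17 neighbours and non-coding genes of the Hox clusters that were found, 3 reached 100 CPM in a class, the protein-coding neighbours Hnrnpa2b1, Skap2 and Snx10. Hotairm1, a non-coding gene of HoxA, was highest in endothelial-like cells at 17.1 CPM (14.7 to 19.9), with 46.3 CPM (32.05 to 64.7) in the Gja4-rich cluster. Hoxd3os1 read 12.1 CPM (10.01 to 14.4) in endothelial-like and 0.473 CPM (0.319 to 0.675) in chondro-osteogenic cells. Hotair and Hottip, non-coding genes of the 5′ parts of HoxC and HoxA, had 19 and 9 UMIs in all cells kept. Of 8 early haematopoietic partners 2 reached 100 CPM, Flt3 in the plasmacytoid dendritic-like cluster (126 CPM, 116 to 136) and Kmt2a, an activator of Hoxa9, in B lineage-like (125 CPM, 117 to 133) and pericyte- or smooth muscle-like cells (107 CPM, 88.4 to 129). Of 12 Polycomb and trithorax regulators, which keep Hox genes silent or open, 5 reached 100 CPM. Ezh2, the Polycomb methyltransferase, read 408 CPM (394 to 423) in B lineage-like cells and 24.4 CPM (22.6 to 26.4) in chondrocyte-like cells, and 7 of the 12 were at least 2-fold higher in endothelial-like than in chondro-osteogenic cells, beside the 26.8% of all genes given above.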

How the data were processed

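Cells of both P6 tibiae, taken with the growth plate and without the secondary ossification centers, were run as 1 library. The authors deposited raw UMI counts per gene and barcode, made, per the submitters' processing notes, with Cell Ranger 3.1.0 on mm10 to which tdTomato and WPRE had been added; the notes also list Seurat 3. UMI counts of tdTomato and WPRE were deposited in a matrix of their own. Which annotation release they used is not given in these sources. Gene positions and 3′ ends were taken from GENCODE M21 and the sequences before start sites from RefSeq (GRCm38.p6).

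The cell filter required 1600 detected genes and allowed 10% of UMIs from mitochondrial and 50% from ribosomal protein genes (137265974 UMIs; 2623 to 85279 per cell). For clustering, log values of counts per 10000, 2000 variable genes, 30 principal components, 20 neighbours and Leiden resolution 1 were used with scanpy 1.11.5 (seed 1). Sub-clusters were made at resolution 0.6. Scrublet, with an expected rate of 10%, called 588 of 14181 barcodes doublets, which were kept. A cluster took the name of the list with most markers among its 10 leading genes by fold. Where it had none, the list with the highest mean of log2 levels, standardised across clusters, was used. That mean had to be at least 1, and the cluster had to pass a limit of depth. In both cases at least 3 markers of the list had to be at 10 CPM or more. Chondrogenic names also needed Col2a1 at 5000 CPM or more and above Col1a1, osteogenic names Col1a1 at or above Col2a1, and vascular and blood names both below 5000 CPM. Stromal names needed Col2a1 below 5000 CPM, and skeletal and stromal names Ptprc below 50 CPM. White blood names needed at least 3 markers among the leading genes. Clusters that missed this were called other leukocyte-like where Ptprc was at 50 CPM or more.

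Levels were summed UMIs per 1000000, with exact Poisson intervals, and ratios carry exact binomial intervals on the 2 sums. Where a member had 0 UMIs, 3 counts were taken as the limit. Calls were made at 2-fold among genes with at least 50 UMIs in both groups together. Members with at least 100 UMIs were named, the others where they are accounted for. Some genes are not reported here. The ratio and interval code was tested on simulated data. Cell filters, doublet removal, clustering settings, the level measure, the UMI minimum and the reporter rule were varied. The members, lists and comparisons were chosen with earlier results of these data known.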

Additional observations from a re-analysis of the deposited data

How the results depend on the processing

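No paired analysis was possible because all entries are of 1 library. Of 138 values recomputed under alternative settings, 100 stayed within the counting interval of the main value or, for counts of members, within 1.5-fold of it. Another 37 moved further, and 1 turned direction where the main interval excluded 0. The HC-derived over non-HC-derived ratio in immature osteoblast-like cells (0.03), whose main interval includes 0, was not counted as turned. It read -0.38 with at most 5% mitochondrial UMIs and -0.004 with more variable genes. With at least 2000 genes per cell it read 0.26, without doublets 0.25, at resolution 1.5 0.26 and with the tdTomato rule 0.29. The summed level in chondro-osteogenic cells (158 CPM) was 166 CPM with at most 5% mitochondrial UMIs, 154 CPM with more variable genes and 164 CPM as a mean over cells. That in endothelial-like cells (243 CPM) was 401 CPM with at most 5% mitochondrial UMIs, where 39 cells bore the name because the larger cluster passed the collagen limit, and 255 CPM without doublets. That in blood cells (15.7 CPM) was 18.01 CPM with at least 2000 genes per cell, 12.8 CPM with at most 5% mitochondrial UMIs and 14.3 CPM as a mean over cells. The share of groups 9 to 13 in chondro-osteogenic cells (68.5%) was 69.6% with at most 5% mitochondrial UMIs and 67.6% as a mean over cells. The osteogenic over chondrogenic log2 ratio (-0.30) was -0.50 relative to the median of all genes, a setting chosen after seeing the data, as was leaving out the Col10a1-rich cluster. The 1 member at least 2-fold higher in osteogenic cells became 2 with at least 2000 genes, with at most 5% mitochondrial UMIs, without doublets, at resolution 1.5 or without the Col10a1-rich cluster, 4 with a minimum of 20 UMIs and 5 with none. The 2 lower members became 4 with at most 5% mitochondrial UMIs, without doublets or relative to the median, and 10 with no minimum. The HC-derived over non-HC-derived ratio in osteogenic cells (0.24) turned to -0.035 with at most 5% mitochondrial UMIs, where a cluster of 133 cells with 8 fibroblast genes among its 10 leading genes was named immature osteoblast-like. Hoxd11 in fibroblast- or tendon-like cells was 0 CPM with at least 2000 genes per cell, where 105 cells bore that name. Where the cause is not given it was not tested. With 1 mouse and about 1 Hox UMI per cell at the thinned depth, low members cannot be compared between classes.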

Other observations

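The 2 clusters left unnamed had a summed Hox level of 121 CPM (112 to 131), with 54.6% from HoxA, 1.36% from HoxB and 43.3% from HoxC, and 130 of their 186 cells were called doublets. Within B lineage-like cells the sub-cluster whose leading genes include Kit, Hmga2 and Ctla2a (173 cells) had 28.4 CPM (21.9 to 36.3) and a cycling one led by Emp1, Ube2c and Ccnb1 (68 cells) 33.8 CPM (23.8 to 46.6). The sub-cluster led by the light chain genes Iglc1 and Iglc2 (38 cells) had 6.01 CPM (0.727 to 21.7). Rgs5 and Col4a1, genes of vessel cells, were also among the leading genes of the first, and their part in its level was not tested. Within erythroid-like cells the sub-cluster led by Pf4 and Ctla2a (59 cells) had 31.5 CPM (21.1 to 45.3), and the sub-clusters with hemoglobin or interferon genes had 0 to 6.58 CPM. The sub-cluster of 59 cells held 29 of the 112 Hox UMIs of the class and had its highest Kit level (71.8 CPM). Ccl5, Gzma and Il2rb were also among its leading genes, and Gzma marks T or NK lymphocytes. The part of such cells in its level was not tested.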
